A study of Sus scrofa with 13 samples.

Results

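Pregnancy-associated glycoprotein genes were followed through RNA sequencing of pig (Sus scrofa) embryos before implantation. They were taken from the deposited gene table as the genes whose symbol is PAG6 or PPAG3 or whose description names a pregnancy-associated glycoprotein, keeping the 10 with the highest summed read count. Of 28232 genes in the table, 12 matched and 10 were kept. The last one kept, LOC110259250, had 1078 reads over all libraries, and the 2 left out, LOC100522849 and LOC100523770, had 902 and 769. The 10 kept are PPAG3, PAG6 and 8 genes known only by a locus number: LOC100737419 and LOC100523945 are described in the table as pregnancy-associated glycoprotein 2, LOC100524786 as a pregnancy-associated glycoprotein-like gene, and LOC100524130, LOC100524479, LOC100524300, LOC110259249 and LOC110259250 as pregnancy-associated glycoprotein 2-like.

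Each library was made from polyadenylated RNA of a pool of embryos. Embryos produced by in vitro fertilisation (IVF) were sequenced as 4-cell embryos, blastocysts and hatched blastocysts, with 3 libraries each, and embryos developed in vivo were sequenced as hatched blastocysts and blastocysts, with 2 libraries each. The design asks how expression changes with stage and how embryos from IVF culture compare with in vivo ones. A blastocyst has a fluid-filled cavity enclosed by trophectoderm, the epithelium from which the trophoblast of the placenta derives, and on hatching it escapes from the zona pellucida, the coat around the egg. The labels name no strain, embryo age in days, number of embryos per pool or culture medium, and do not say whether pools came from separate animals or fertilisation rounds, so p-values measure the spread between these libraries. One in vivo hatched library has no number in the count columns and is called the unnumbered library; 4-cell embryos were sequenced only from IVF.

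Pregnancy-associated glycoproteins are secreted relatives of pepsin made by the trophoblast of even-toed hoofed mammals. They keep the overall fold of an aspartic protease, and some family members carry changes around the catalytic site and are thought to be inactive as enzymes. In cattle and sheep the placenta releases them into the mother's blood, where they serve as a test for pregnancy. In pigs the family is known for its expression in the trophoblast around the time of implantation.

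Total read counts ran between 33259311 and 39273867 per library, so a count of 0 allows a level of up to 0.0764 to 0.0902 CPM (read counts scaled to the library total) at a limit of 3 reads, for counting error alone. All 10 genes passed the filter on low counts in every comparison. The labelled stages were checked against marker genes. KRT18, a keratin of trophectoderm, had 0 reads in the 4-cell libraries and 1890 to 3320 CPM in the blastocyst and hatched libraries of both origins. The 20 genes of a trophectoderm epithelium list summed to 24890 to 43670 CPM in those 10 libraries, and to 1052 to 1297 CPM in 4-cell embryos. The in vivo blastocyst libraries differed from each other in the glycoprotein genes, as given below, and the values that rest on them are given below with each left out. In vivo blastocyst library 1 had reads for 14221 genes, the fewest of the 13 libraries, and library 2 for 16455.

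All 12 matching genes lay in 1 cluster on chromosome 2 of Sscrofa11.1, the build named in the submitters' processing notes, with positions from the RefSeq annotation of that build. The cluster ran from 10280973 to 10600796, a length of 319824 bp, and held no other protein-coding gene, with 2 pseudogenes between its members. PGA5, which encodes a pepsinogen A, and beyond it VWCE lay on the low-coordinate side, and VPS37C, an endosomal sorting gene, followed by CD5, a lymphocyte surface receptor gene, on the other. In order of coordinate the genes were LOC110259249 (10280973 to 10290060), PAG6 (10311350 to 10386887), LOC100522849 (10340130 to 10349422), LOC110259250 (10430342 to 10438418), LOC100737419 (10452824 to 10461624), PPAG3 (10474866 to 10482943), LOC100523770 (10492911 to 10501605), LOC100523945 (10514058 to 10522916), LOC100524130 (10537302 to 10547265), LOC100524786 (10555849 to 10565569), LOC100524479 (10574818 to 10582603) and LOC100524300 (10593201 to 10600796). The annotated span of PAG6, 75538 bp, encloses LOC100522849, whereas the other kept genes span 7596 to 9964 bp. The genes are close relatives, and the sources used here do not say how reads shared by similar or overlapping copies were assigned or whether strand was used. The level of any single copy is therefore less certain than the sum over the family.

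**Figure D1:**
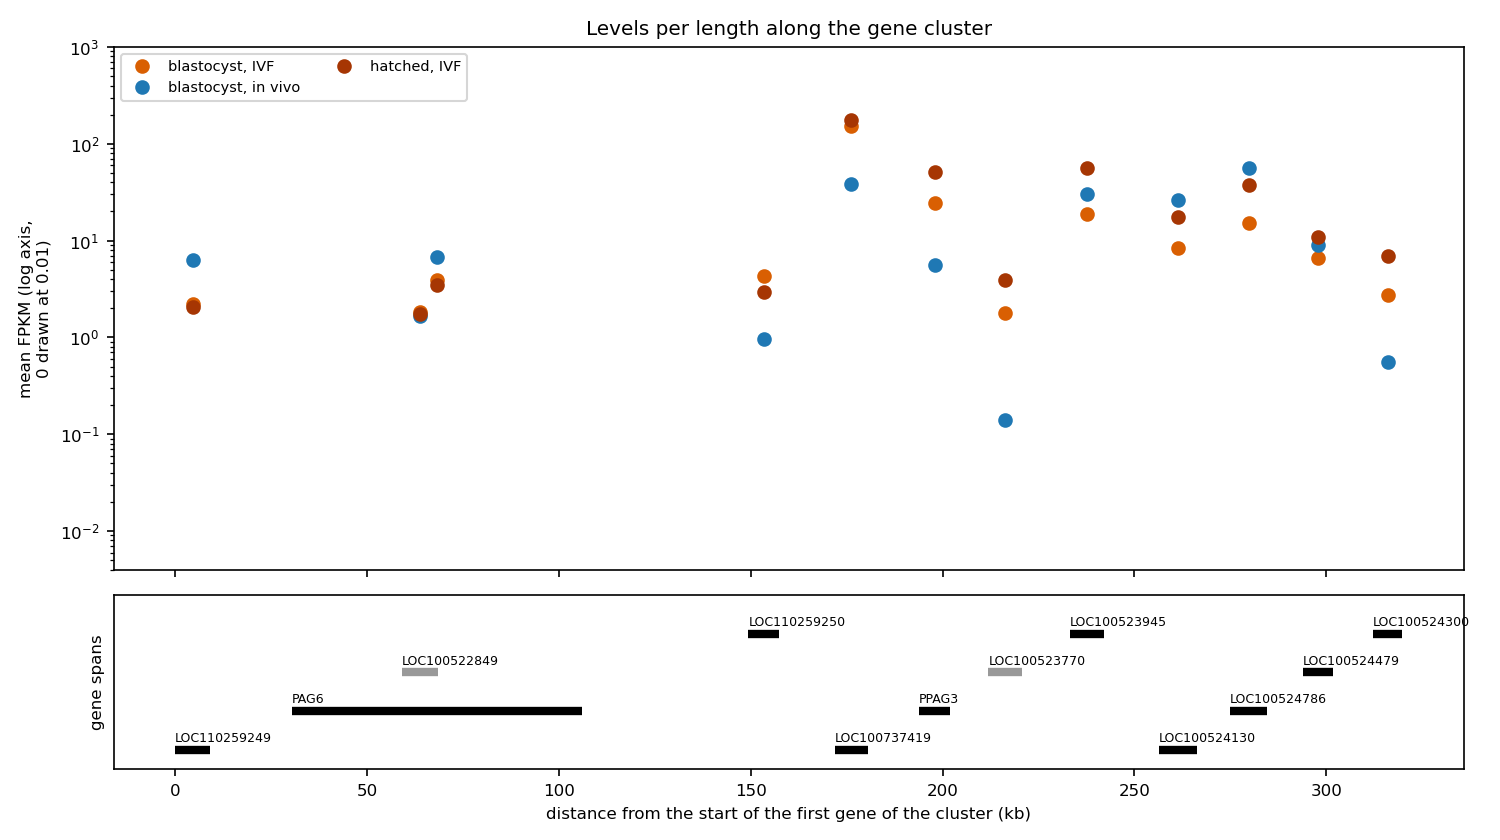
Mean level per length (FPKM, log axis) of each of the 12 genes, placed at its midpoint along the cluster (kb from the start of the first gene), for IVF blastocysts, IVF hatched blastocysts and in vivo blastocysts, with gene spans underneath in black for the 10 genes kept and grey for the 2 left out. LOC100737419 stands highest in both IVF groups, at a mean of 154 FPKM in blastocysts and 178 FPKM in hatched blastocysts. The highest mean in in vivo blastocysts is that of LOC100524786, at 56.5 FPKM, from 1.91 FPKM in library 1 and 111 FPKM in library 2. In library 1 alone LOC100737419 is highest, at 5.41 FPKM.

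The most abundant copy in IVF embryos was LOC100737419. Compared per length, in FPKM (the authors' read values scaled to gene length and library size), its level in IVF blastocysts was 154 ± 12.8 FPKM (SD, n = 3), and the next, PPAG3, stood at 24.5 FPKM, with no overlap between the libraries of the 2 genes. Below them came LOC100523945 at 18.7 FPKM, whose range overlapped that of PPAG3, then LOC100524786 at 15.1 FPKM and LOC100524130 at 8.37 FPKM, each clear of the gene above it in every library. The remaining 5 genes averaged 2.21 to 6.69 FPKM and overlapped their neighbours in this order. In IVF hatched blastocysts LOC100737419 averaged 178 ± 96.1 FPKM, ahead of LOC100523945 at 56.8, PPAG3 at 50.6 and LOC100524786 at 37.3 FPKM, and the library ranges of these 4 overlapped from each to the next. In in vivo blastocysts the highest mean was that of LOC100524786, 56.5 FPKM, followed by LOC100737419 at 38.5, LOC100523945 at 30.2 and LOC100524130 at 26.6 FPKM, and no neighbours in this order were apart. PPAG3 ranked eighth of the 12 genes there, at 5.58 FPKM. The lead of LOC100524786 came from in vivo library 2, with 111 FPKM against 71.65 FPKM for LOC100737419. In library 1 LOC100737419 was highest, at 5.41 FPKM, and LOC100524786 had 1.91 FPKM.

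The family was near or at 0 in 4-cell embryos and present in IVF blastocysts and hatched blastocysts. The 10 genes summed to 0, 0 and 0.208 CPM in the 4-cell libraries, to 359.6, 385 and 299 CPM in IVF blastocysts and to 607, 296 and 744 CPM in IVF hatched blastocysts. The only reads at the 4-cell stage were 7 of LOC100737419 in library 3. All 10 genes were called higher in IVF blastocysts than in 4-cell embryos, and all 10 were called higher in hatched IVF blastocysts compared with 4-cell embryos, by edgeR's quasi-likelihood test (adjusted p of 0.00831 or lower and of 0.00852 or lower). Over all 16312 genes tested, 25.7% were called higher in the first comparison and 25.7% in the second, and the median log2 fold change of all genes was -0.23 and -0.24. The 2 comparisons share the 4-cell libraries.

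With 0 reads in every 4-cell library, 9 of the 10 genes have a lower bound in place of a fold change, computed against 3 reads per library. In IVF blastocysts LOC100524786 was at least 393-fold higher than in 4-cell embryos, PPAG3 at least 325-fold, LOC100523945 at least 320-fold and LOC100524130 at least 186-fold. The bounds for LOC100524479, PAG6, LOC110259250, LOC100524300 and LOC110259249 were 117-fold, 58.7-fold, 58.6-fold, 37.1-fold and 29.1-fold. In hatched IVF blastocysts the bound was 973-fold for both LOC100524786 and LOC100523945, and the smallest was 27.0-fold, for LOC110259249. All 10 calls held in both comparisons with any 1 library left out. LOC100522849 and LOC100523770 also had 0 reads in the 4-cell libraries.

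**Figure D2:**
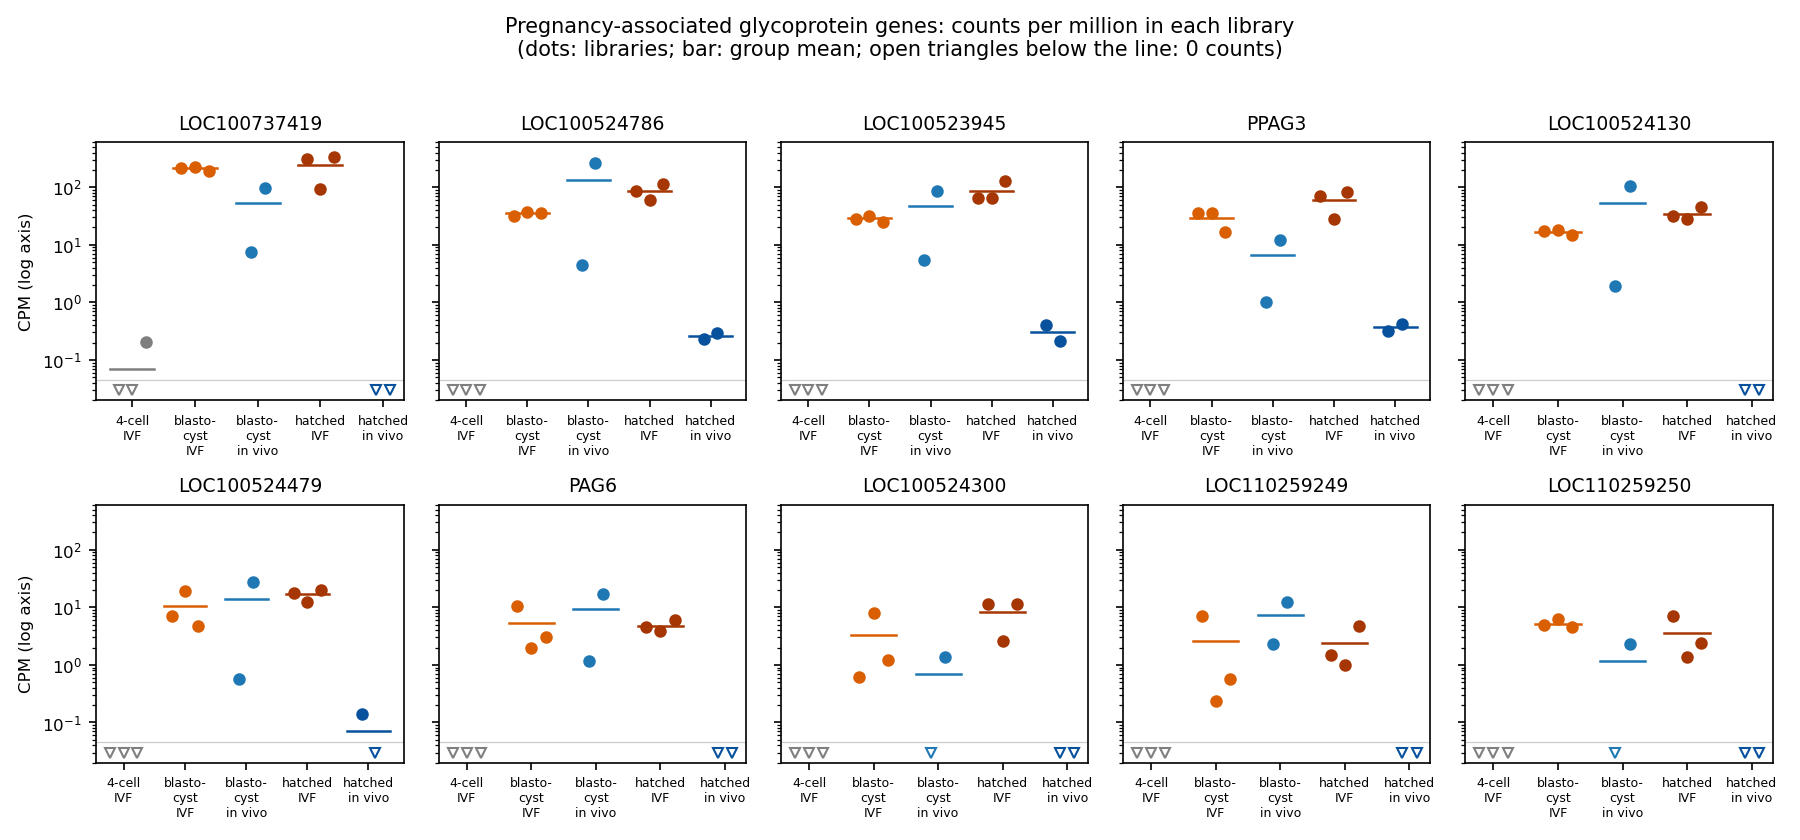
Level of each of the 10 genes (CPM, log axis) in each of the 13 libraries, by stage and origin; dots are libraries, bars are group means, and open triangles below the grey line are libraries with 0 reads. The IVF blastocyst and hatched libraries of LOC100737419 sit between 91.7 and 328.5 CPM, its in vivo blastocyst libraries at 7.46 and 98.6 CPM, and its in vivo hatched libraries at 0.

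IVF and in vivo blastocysts had about the same mean family level, and the in vivo libraries lay on either side of the IVF ones. The 10 genes summed to 359.6, 385 and 299 CPM in IVF blastocysts, against 24.4 and 621 CPM in in vivo blastocysts, so that the means differed 1.08-fold. LOC100737419 had 216, 226 and 192 CPM in IVF blastocysts, against 7.46 and 98.6 CPM in in vivo blastocysts. Every IVF library was above both in vivo libraries for this gene, as it was for PPAG3, with 35.4, 35.1 and 16.8 CPM in IVF blastocysts against 1.03 and 12.2 CPM in in vivo blastocysts. LOC110259250 was the third gene without overlap, with 4.84, 6.27 and 4.59 CPM in IVF blastocysts and 0 and 2.34 CPM in in vivo blastocysts.

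For the remaining 7 genes the in vivo blastocyst libraries lay below and above, or overlapped, the IVF ones. LOC100524786 had 32.1, 37.8 and 35.5 CPM in IVF blastocysts, against 4.45 and 259 CPM in in vivo blastocysts. LOC100524130 had 17.0, 17.8 and 15.0 CPM in IVF blastocysts, against 1.90 and 103 CPM in in vivo blastocysts. LOC100523945 had 28.6, 32.2 and 25.1 CPM in IVF blastocysts, against 5.48 and 87.0 CPM in in vivo blastocysts. For all 3 genes the IVF libraries stood close together, between an in vivo library that was lower and one that was higher.

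No gene of the 10 passed the test between IVF and in vivo blastocysts, where 10.8% of all 15528 genes tested were called in either direction. At an unadjusted p under 0.05 edgeR gave 2 of the 10, beside 27.4% of all genes tested. After adjustment DESeq2 called 0 of the 10, beside 18.7% of all genes tested. The smallest adjusted p was that of PPAG3, with a log2 fold change of 2.19 ± 0.76 (standard error; adjusted p = 0.0901, edgeR). LOC100737419 differed by 2.05 ± 0.81 (adjusted p = 0.133, edgeR), an interval of 0.43 to 3.67 at 2 standard errors. LOC100524786 differed by -1.84 ± 0.90 (adjusted p = 0.211, edgeR), an interval of -3.65 to -0.04 at 2 standard errors. Its unadjusted p was 0.0649 (edgeR), so an interval of 2 standard errors is narrower here than the test at 0.05 implies. Ranges apart between the groups were seen for 3 of the 10 genes and for 43.9% of all genes tested.

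This count rests on the low-count filter and on which in vivo library is used. With no filter on low counts 6 genes were called, LOC100737419, PPAG3, LOC100524300 and LOC110259250 higher and LOC100524786 and LOC100524130 lower in IVF embryos (adjusted p of 0.0287 or lower, edgeR). In that fit 12.7% of all genes tested were called. Without in vivo blastocyst library 2, the high one, 7 genes were called, all higher in IVF embryos, and the log2 fold change of LOC100524786 turned to 2.86 (adjusted p = 0.00394, edgeR). Without library 1, 2 genes were called, LOC100524786 at -2.81 (adjusted p = 0.00294, edgeR) and LOC100524130 at -2.56 (adjusted p = 0.00906, edgeR), both lower in IVF embryos. Each of these fits leaves 1 in vivo blastocyst library, whose spread is taken to be like that of the other groups. Over all genes far fewer were called without library 1 than with both libraries, and a like share without library 2.

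The gap between the in vivo blastocyst libraries was itself large for this family. Library 2 had 25.4 times the summed level of library 1. Of 8367 genes with a mean of at least 5 CPM in in vivo blastocysts, 13 had a ratio of library 2 to library 1 that high (0.155%). Family members were not taken out of this set, and LOC100524786, LOC100524130 and LOC100524479 are among the 13. Ratios as high in the other direction were not counted. The median ratio of the 8367 genes was 1.1. Among the single genes the ratio of library 2 to library 1 ran from 5.37 for LOC110259249 to 58.1 for LOC100524786, with 54.3 for LOC100524130, 49.3 for LOC100524479, 14.6 for PAG6, 13.2 for LOC100737419 and 11.9 for PPAG3. LOC100524300 and LOC110259250 had 0 reads in library 1, and 51 and 87 reads in library 2. Among IVF blastocysts the highest library was 1.29 times the lowest, and among IVF hatched blastocysts 2.51 times. Trophectoderm epithelium genes summed to 26100 CPM in in vivo blastocyst library 1 and 26990 CPM in library 2, and trophoblast transcription factors to 1369 and 1767 CPM.

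**Figure D3:**
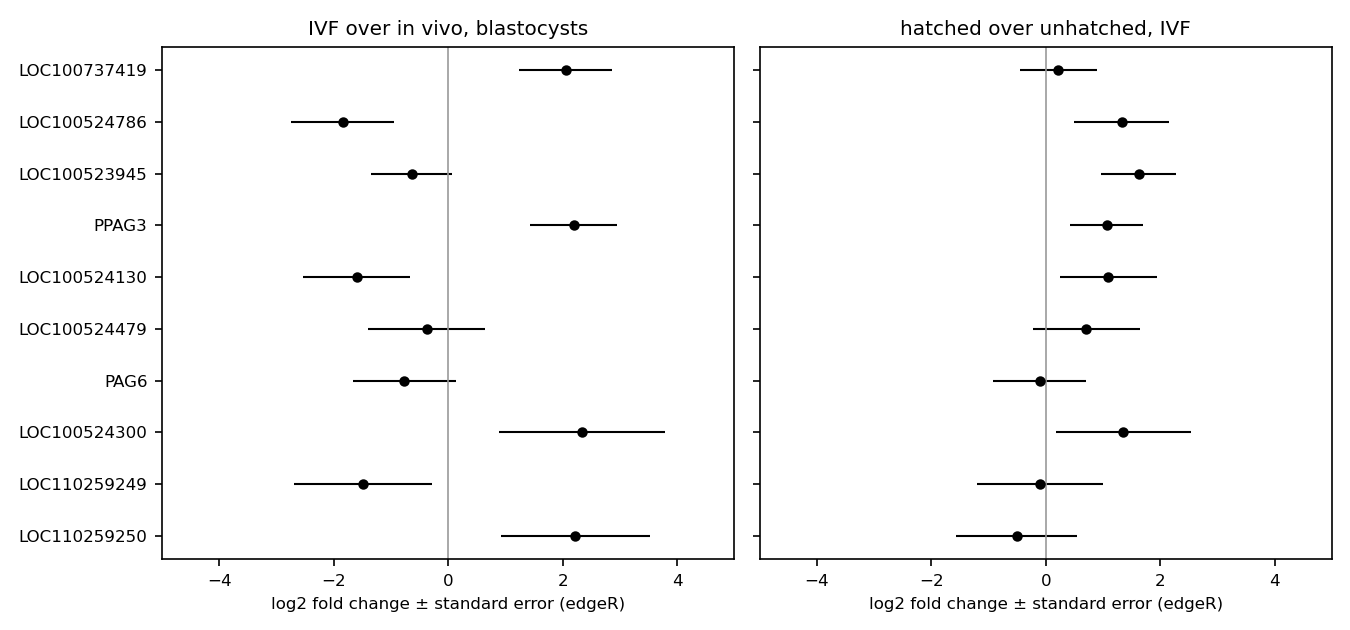
Log2 fold change with its standard error (edgeR) for each of the 10 genes, IVF over in vivo blastocysts on the left and hatched over unhatched IVF blastocysts on the right. On the left 4 genes lie above 0 and 6 below, with PPAG3 at 2.19 and LOC100524786 at -1.84, and on the right all 10 lie between -0.51 and 1.62.

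The make-up of the family differed between the origins in the libraries measured. LOC100737419 took 60.2%, 58.7% and 64.3% of the summed count in IVF blastocysts, against 30.6% and 15.9% in in vivo blastocysts. The mean share was 61.1% ± 2.9 (SD, n = 3) in IVF blastocysts and 23.2% ± 10.4 (SD, n = 2) in in vivo blastocysts, a gap of 37.8 percentage points (p = 0.2, two-sided exact permutation test over libraries, the smallest p that 3 against 2 libraries allow). Per length, as a share of summed FPKM, it took 61.8% to 68.6% in IVF blastocysts, against 34.0% in library 1 and 20.7% in library 2 of in vivo blastocysts. LOC100524786 took 8.92% to 11.9% of the summed count in IVF blastocysts, against 18.2% and 41.6% in in vivo blastocysts, and LOC100523945 took 7.94% to 8.39%, against 22.4% and 14.0%. PPAG3 went the other way, with 5.61% to 9.84% in IVF blastocysts and 4.21% and 1.96% in in vivo blastocysts. For each of these 4 genes both in vivo libraries lay on the same side of all IVF libraries, although their totals differed 25.4-fold. The same held for LOC100524130, LOC110259249 and LOC110259250, while the shares of LOC100524479, PAG6 and LOC100524300 overlapped between the origins. Shares of one total depend on each other, so these genes do not count separately. In CPM, ranges were apart for 43.9% of all genes tested between IVF and in vivo blastocysts.

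IVF blastocyst libraries also differed among themselves at one end of the cluster, a grouping chosen after the values were seen. The first 3 genes by coordinate, LOC110259249, PAG6 and LOC100522849, held 6.59% of the reads of all 12 genes in IVF blastocyst library 1, 0.785% in library 2 and 1.87% in library 3. In IVF hatched blastocysts they held 1.3%, 2.42% and 2.02%, and in in vivo blastocysts 22.1% and 5.29%. PAG6 alone had 10.7, 1.96 and 3.08 CPM in IVF blastocysts, and LOC110259249 had 7.002, 0.232 and 0.577 CPM. For LOC100524300, at the far end, library 2 was the high one, with 0.611, 8.13 and 1.21 CPM.

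**Figure D4:**
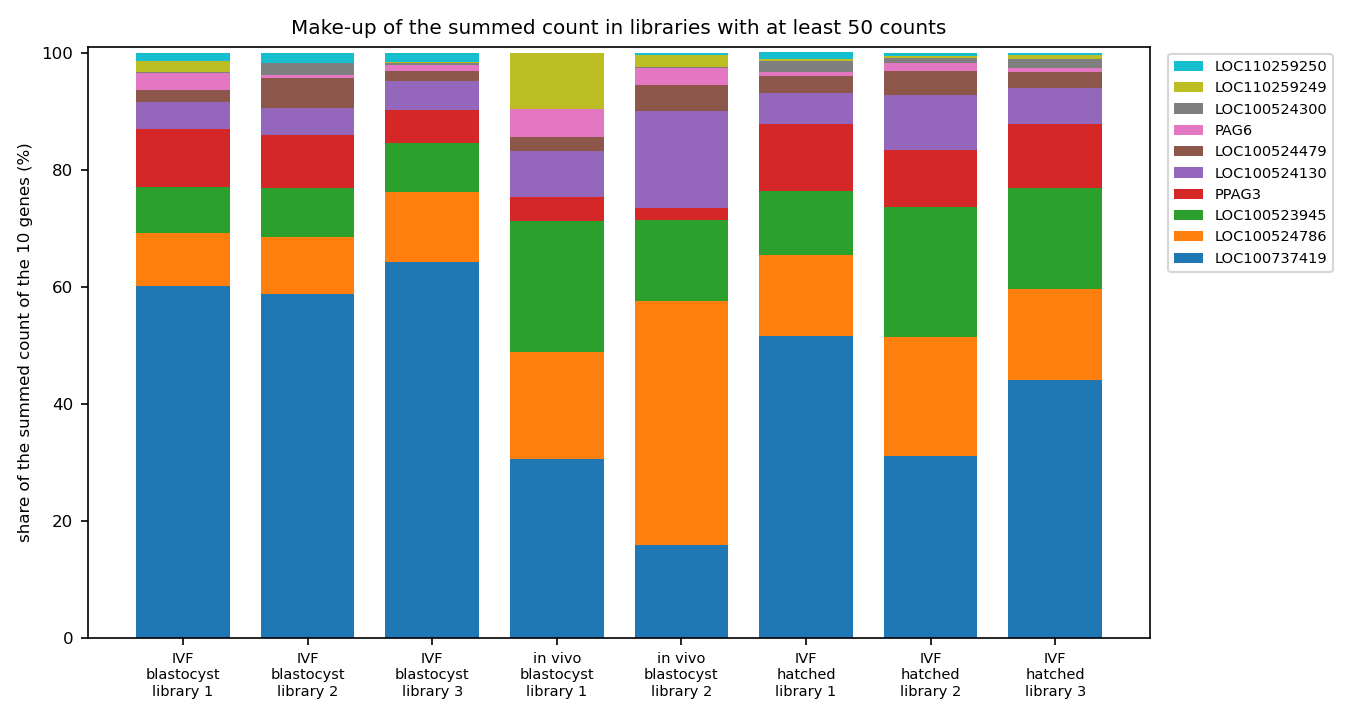
Share of each gene in the summed read count of the 10 genes, stacked to 100%, for the 8 libraries with at least 50 such reads. LOC100737419 fills 58.7% to 64.3% of the bar in IVF blastocysts, 15.9% and 30.6% in in vivo blastocysts and 31.0% to 51.5% in IVF hatched blastocysts.

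In hatched blastocysts the family was present in IVF embryos and nearly absent in in vivo embryos. The 10 genes summed to 607, 296 and 744 CPM in IVF hatched blastocysts, against 1.08 CPM in the unnumbered in vivo library and 0.937 CPM in in vivo library 2, which are 38 and 35 reads. The ratio of the means was 544. In the unnumbered library 4 of the 10 genes had a read and in library 2 the number was 3. LOC100737419, LOC100524130, PAG6, LOC100524300, LOC110259249 and LOC110259250 had 0 reads in both.

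LOC100737419 had 312, 91.7 and 328.5 CPM in IVF hatched blastocysts, which is at least 2950-fold above in vivo hatched blastocysts at the limit of 3 reads per library. LOC100524130 had 31.3, 27.8 and 45.0 CPM in IVF hatched blastocysts, at least 419-fold above. For PAG6 the values were 4.55, 3.83 and 5.91 CPM in IVF hatched blastocysts, at least 57.4-fold above. The bounds were 102-fold for LOC100524300, 43.5-fold for LOC110259250 and 29.1-fold for LOC110259249. No in vivo hatched library reached any IVF hatched library in these 6 genes. Ranges apart were found for 46.6% of all genes tested between IVF and in vivo hatched blastocysts.

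The 4 genes with in vivo reads showed the same order of groups. LOC100524786 had 84.7, 60.5 and 115.5 CPM in IVF hatched blastocysts, against 0.228 and 0.295 CPM in in vivo hatched blastocysts, a log2 fold change of 8.43 ± 1.45 (adjusted p = 0.00467, edgeR). LOC100523945 had 65.8, 66.1 and 129 CPM in IVF hatched blastocysts, against 0.399 and 0.214 CPM in in vivo hatched blastocysts, a log2 fold change of 8.20 ± 1.11 (adjusted p = 0.00127, edgeR). PPAG3 had 70.1, 28.5 and 81.5 CPM in IVF hatched blastocysts, against 0.313 and 0.428 CPM in in vivo hatched blastocysts, a log2 fold change of 7.39 ± 1.04 (adjusted p = 0.00151, edgeR). LOC100524479 had 18.1, 12.5 and 20.2 CPM in IVF hatched blastocysts, against 0.142 and 0 CPM in in vivo hatched blastocysts, a log2 fold change of 7.92 ± 1.67 (adjusted p = 0.0120, edgeR).

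All 10 genes were called higher in IVF than in in vivo hatched blastocysts (adjusted p between 0.000741 and 0.0335, edgeR), where 6.96% of all genes tested were called higher. Of the 2 genes left out, LOC100522849 was called higher (adjusted p = 0.00346, edgeR) and LOC100523770 was not (adjusted p = 0.0776, edgeR). The number called was 4 without in vivo hatched library 2, 7 without the unnumbered library, 7 without IVF hatched library 1, 10 without IVF hatched library 2 and 8 without IVF hatched library 3. It was 3 where the 4-cell libraries were added to the fit, a setting under which calls over all genes fell to 92, against 1839 without them. Over all genes 11.8% were called with no library left out. The share was 6.78%, 6.95% and 6.41% without IVF hatched libraries 1, 2 and 3, and it also fell without in vivo hatched library 2. LOC100737419, LOC100523945 and PPAG3 were called under each of these settings.

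Within in vivo embryos, 9 of the 10 genes fell in hatched relative to unhatched blastocysts, where 7.39% of all genes were called lower. The sum was 1.08 and 0.937 CPM in hatched and 24.4 and 621 CPM in unhatched in vivo blastocysts, and the mean was 320-fold lower in hatched ones, 24.2-fold against in vivo blastocyst library 1 alone and 615-fold against library 2 alone. Against the mean of both blastocyst libraries LOC100737419 was at least 640-fold lower, LOC100524130 at least 635-fold, PAG6 at least 111-fold, LOC110259249 at least 90.0-fold and LOC110259250 at least 14.1-fold. Against library 1 alone, a choice made after seeing the data, these bounds were 90.0-fold, 23.0-fold, 14.3-fold and 28.3-fold for the first 4, and none can be given for LOC110259250, which had 0 reads there. LOC100524786 fell by 8.94 ± 1.49 on the log2 scale (adjusted p = 0.00364, edgeR), LOC100523945 fell by 7.22 ± 1.09 (adjusted p = 0.00232, edgeR) and PPAG3 fell by 4.15 ± 0.95 (adjusted p = 0.0156, edgeR). LOC100524479, at 0.142 and 0 CPM in hatched and 0.566 and 27.9 CPM in unhatched in vivo blastocysts, fell by 7.58 ± 1.68 (adjusted p = 0.0132, edgeR). These 4 changes were smaller without in vivo blastocyst library 2, at -4.25 for LOC100524786, -4.32 for LOC100523945, -1.64 for PPAG3 and -3.12 for LOC100524479. LOC100524300, with 0 and 0 CPM in hatched and 0 and 1.37 CPM in unhatched in vivo blastocysts, did not pass (adjusted p = 0.0994, edgeR).

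The lower in vivo blastocyst library was still above both hatched in vivo libraries for 8 of the 10 genes, and ranges apart were found for 53.5% of all genes. The exceptions were LOC100524300 and LOC110259250, both at 0 in in vivo blastocyst library 1. Without in vivo blastocyst library 2 the number called was 6, and PPAG3 (adjusted p = 0.136, edgeR), LOC100524479 (adjusted p = 0.0952, edgeR) and LOC110259250 were no longer called. It was 10 without in vivo blastocyst library 1, 6 without the unnumbered hatched library, 5 without hatched library 2 and 4 with the 4-cell libraries in the fit. PPAG3 was also not called without the unnumbered library (adjusted p = 0.0693, edgeR) or without hatched library 2 (adjusted p = 0.0863, edgeR). LOC100737419, LOC100524786, LOC100523945 and LOC100524130 were called lower under all of these settings. Over all genes 14.3% were called in either direction with no library left out, and 0.546% with the 4-cell libraries in the fit. Fewer genes were called with any 1 in vivo library left out. In pooled embryos, how many cells carried these messages and how much each cell held cannot be told apart. The trophectoderm keratins KRT8 and KRT18 averaged 22500 and 2390 CPM in hatched in vivo blastocysts, against 19800 and 2160 CPM in unhatched ones.

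Within IVF embryos no gene of the 10 passed between hatched and unhatched blastocysts, where 0.0451% of all genes, 7 of 15528, were called. DESeq2 called 0 of the 10 as well, beside 0.316% of all genes tested. Of the 10, 1, LOC100523945, had an unadjusted p under 0.05 in edgeR, beside 3.83% of all genes tested. It had 65.8, 66.1 and 129 CPM in hatched and 28.6, 32.2 and 25.1 CPM in unhatched IVF blastocysts, without overlap, and a log2 fold change of 1.62 ± 0.65 (adjusted p = 1.0, edgeR). LOC100524786, with a log2 fold change of 1.33 ± 0.83, and LOC100524130, with 1.09 ± 0.85, were the other genes without overlap, so 3 of 10, where 10.6% of all genes were apart. With no filter on low counts LOC100523945, LOC100524786, LOC100524130 and PPAG3 were called higher in hatched IVF blastocysts (adjusted p of 0.0429 or lower, edgeR). In that fit 0.75% of all genes tested were called. LOC100737419 had 312, 91.7 and 328.5 CPM in hatched and 216, 226 and 192 CPM in unhatched IVF blastocysts, a log2 fold change of 0.22 ± 0.67 with an interval of -1.12 to 1.56 at 2 standard errors. Its share of the summed count averaged 42.2% ± 10.4 in hatched and 61.1% ± 2.9 in unhatched IVF blastocysts (SD, n = 3 each), without overlap (p = 0.1, two-sided exact permutation test, the smallest p that 3 against 3 libraries allow).

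The change on hatching differed between the origins for 7 of the 10 genes in the test of the difference itself, all with a higher change in IVF embryos, where 2.79% of all genes were called in that direction. The adjusted p was 0.00582 for LOC100523945, 0.00763 for LOC100737419, 0.00919 for LOC100524786, 0.0108 for LOC100524130, 0.0196 for PAG6, 0.0274 for PPAG3 and 0.0328 for LOC100524479 (edgeR). For PPAG3, which had reads in all 4 groups, the hatching changes of IVF and in vivo embryos differed by 5.21 ± 1.13 on the log2 scale. LOC110259249, LOC100524300 and LOC110259250 did not pass (adjusted p of 0.0507, 0.124 and 0.132, edgeR).

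With 1 library left out the number for the difference was 8 without in vivo blastocyst library 1 and 5 without library 2, 5 without the unnumbered in vivo hatched library and 4 without in vivo hatched library 2. It was 6, 7 and 5 without IVF blastocyst libraries 1, 2 and 3, and 5, 6 and 5 without IVF hatched libraries 1, 2 and 3. LOC100737419, LOC100524786, LOC100523945 and LOC100524130 were called in each of these fits. PPAG3 was not called without in vivo blastocyst library 2 (adjusted p = 0.0637, edgeR), either in vivo hatched library, IVF blastocyst library 1 or 3, or IVF hatched library 1 or 3. Among these 10 fits LOC100524479 was called without in vivo blastocyst library 1 and without IVF blastocyst library 2, and not in the other 8, and PAG6 was not called without in vivo hatched library 2 (adjusted p = 0.069, edgeR). With the 4-cell libraries in the fit 0 of the 10 passed, and 1 gene of all tested. Over all genes 4.71% were called in either direction with no library left out. The share was 2.55%, 2.95% and 2.23% without IVF blastocyst libraries 1, 2 and 3. It was 2.7%, 2.16% and 2.72% without IVF hatched libraries 1, 2 and 3. It also fell without in vivo blastocyst library 1 or in vivo hatched library 2, and rose without in vivo blastocyst library 2 or the unnumbered library.

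KRT8, KRT18 and the trophoblast transcription factors named below kept reads in in vivo hatched blastocysts. HAND1, on the list of trophoblast transcription factors, had 0 reads in both of those libraries and had reads in the other blastocyst groups. EOMES, on the same list, had 0 reads in IVF hatched and in in vivo unhatched blastocysts. KRT8 had 17300 to 27700 CPM in in vivo hatched blastocysts, against 19400 to 20300 CPM in in vivo blastocysts. KRT18 had 1980 to 2800 CPM, against 1890 to 2440 CPM. The trophectoderm epithelium list summed to 26640 to 36890 CPM in IVF hatched blastocysts, against 24890 and 36390 CPM in in vivo hatched blastocysts. ETS2, GATA2, GATA3 and TFAP2C, DLX3 and CDX2 are transcription factors of the trophoblast lineage, and ETS2, DLX3 and GATA2 are known to act on promoters of trophoblast genes in hoofed mammals. In IVF hatched blastocysts CDX2 had 25.3 to 45.2 CPM and DLX3 11.4 to 19.3 CPM, against 21.0 to 41.1 and 20.0 to 22.8 CPM in in vivo hatched blastocysts. GATA2 had 125 to 206 CPM in IVF hatched blastocysts, against 149 to 152 CPM in in vivo hatched blastocysts, and ETS2 had 15.0 ± 2.23 CPM (SD, n = 3), against 24.1 ± 15.6 CPM (SD, n = 2).

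None of these 6 transcription factors passed between IVF and in vivo hatched blastocysts, with adjusted p between 0.374 and 0.941 in edgeR, log2 fold changes between -0.63 and 0.42, and no call by DESeq2. Over all genes edgeR called 11.8% and DESeq2 19.2%. On hatching in vivo 1 of the 6 was called, GATA3, with 45.1 to 67.8 CPM in hatched and 106 to 131 CPM in unhatched in vivo blastocysts, a log2 fold change of -1.13 ± 0.35 with an adjusted p at the threshold of 0.05 (edgeR). DESeq2 called 3 of the 6 on hatching in vivo, beside 22.6% of all genes. These were GATA3 lower (adjusted p = 0.00949, DESeq2) and DLX3 and CDX2 higher (adjusted p of 0.0379 and 0.0389, DESeq2). With no filter on low counts edgeR called GATA3 lower and CDX2 higher (adjusted p of 0.00372 and 0.00982, edgeR), beside 15.0% of all genes. GATA3 was not called on hatching by edgeR without in vivo blastocyst library 1, without in vivo blastocyst library 2 or without in vivo hatched library 2. Of 29 trophoblast transcription factors tested, IVF hatched blastocysts had 2 higher and 0 lower than in vivo ones, with a median log2 fold change of 0.16 beside 0.04 over all genes tested, of which 6.96% were called higher and 4.88% lower. The 2 were MSX2 and VGLL1. Leaving out in vivo hatched library 2 ended both calls, and leaving out IVF hatched library 2 ended that of VGLL1. On hatching in vivo 3 of the 29 were called higher and 5 lower, beside 6.96% and 7.39% of all genes, with a median log2 fold change of -0.29 beside -0.01. That count of 8 was 5 without in vivo blastocyst library 1, 6 without any other 1 of the in vivo libraries and 0 with the 4-cell libraries in the fit.

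MSX2, a homeobox repressor, was the transcription factor of the list with the smallest p on hatching in vivo. It was among the 5 called lower, beside 3 called higher. It had 86.9 to 103 CPM in hatched and 333 to 496 CPM in unhatched in vivo blastocysts, a log2 fold change of -2.19 ± 0.26 (adjusted p = 0.000889, edgeR). In IVF embryos it had 177 to 231 CPM in hatched and 184 to 266 CPM in unhatched blastocysts, and the hatching changes of IVF and in vivo embryos differed by 2.12 ± 0.33 (adjusted p = 0.00781, edgeR). In that test 2 of the 29 were called with a higher change in IVF embryos and 1 with a lower. The shares of all genes were 2.79% and 1.93%. ASCL2 had the smallest p of the list there, ahead of MSX2 and TFAP2A.

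Other secreted products and steroid enzymes of pig trophoblast did not follow one direction on hatching in vivo, where 3 of 16 tested were called higher and 4 lower, beside 6.96% and 7.39% of all genes. With 1 in vivo library left out the counts were 1 to 3 higher and 1 to 3 lower. HSD17B1, which converts weak into strong estrogens, had 31.2 and 102 CPM in hatched and 1.46 and 2.08 CPM in unhatched in vivo blastocysts, a log2 fold change of 5.16 ± 0.82 (adjusted p = 0.0028, edgeR). It was called higher with any 1 of these libraries left out. CYP19A3, an aromatase gene, had 0 reads in hatched and 1.96 and 11.6 CPM in unhatched in vivo blastocysts and was called lower (adjusted p = 0.0119, edgeR), but not without in vivo hatched library 2 (adjusted p = 0.0652, edgeR). Between IVF and in vivo hatched blastocysts 5 of the 16 were called higher and 1 lower, beside 6.96% and 4.88% of all genes, and 1 to 3 higher and 0 lower with 1 library left out. TIMP3, an inhibitor of metalloproteinases, had 204 to 297 CPM in IVF and 70.6 to 73.0 CPM in in vivo hatched blastocysts, a log2 fold change of 1.89 ± 0.27 (adjusted p = 0.00158, edgeR).

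**Figure D5:**
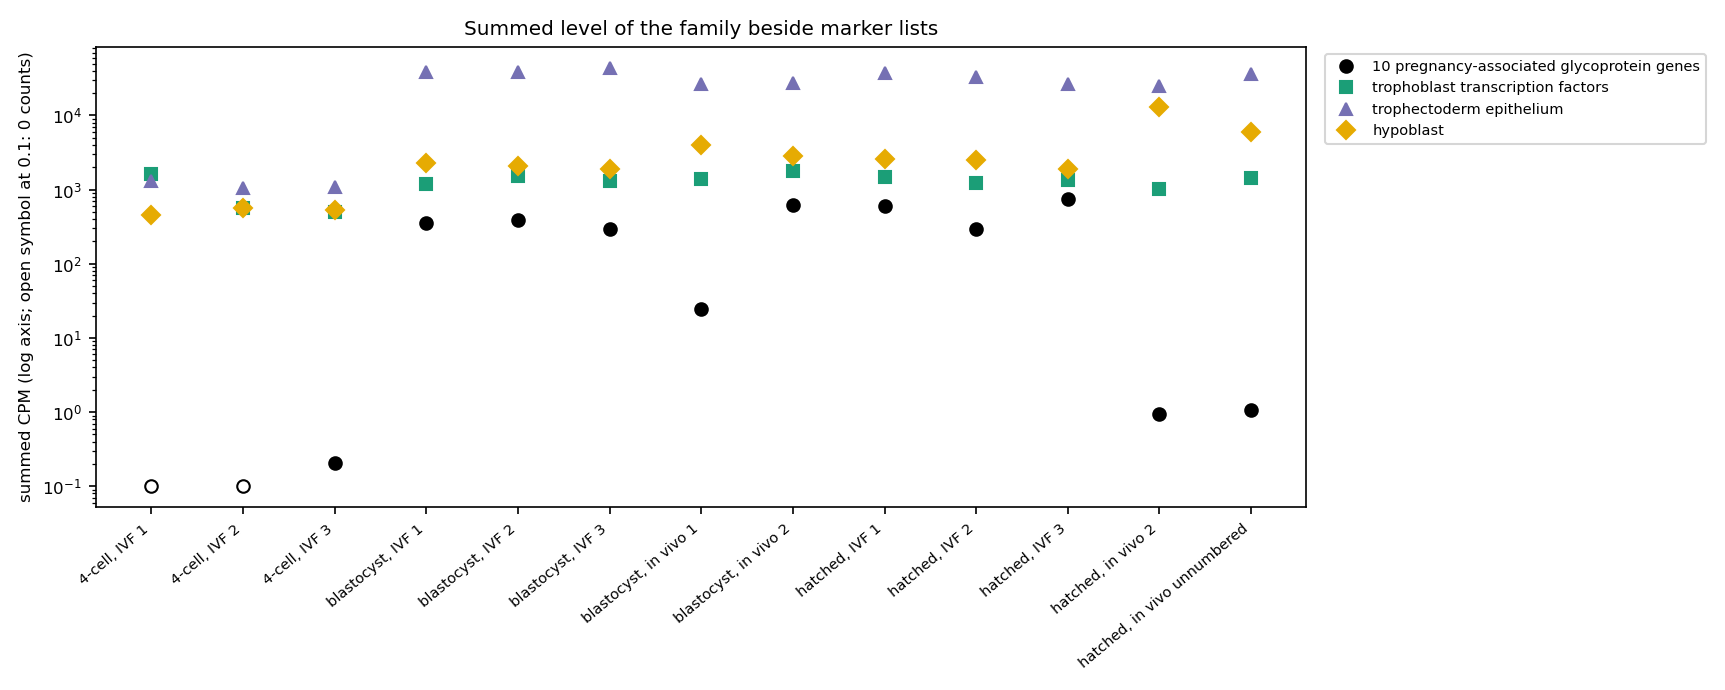
Summed level (CPM, log axis) of the 10 glycoprotein genes, of trophoblast transcription factors, of trophectoderm epithelium genes and of hypoblast genes in each of the 13 libraries, with open symbols for 0 reads. The glycoprotein sum is 0.937 and 1.08 CPM in in vivo hatched blastocysts and 296 to 744 CPM in IVF hatched blastocysts, while the epithelium sum lies between 24890 and 36890 CPM in both.

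Markers of the hypoblast, the inner layer that lines the blastocyst cavity, were lower in IVF than in in vivo hatched blastocysts. The 25 genes of a hypoblast list summed to 1908 to 2595 CPM in IVF hatched blastocysts, against 5959 and 12830 CPM in in vivo hatched blastocysts, and to 1916 to 2266 CPM in IVF blastocysts, against 2822 and 3944 CPM in in vivo blastocysts. Of 21 of them tested, IVF hatched blastocysts had 12 lower and 0 higher than in vivo ones, beside 4.88% of all genes called lower, with 7 lower without in vivo hatched library 2 and 3 lower with the 4-cell libraries in the fit. Between IVF and in vivo blastocysts 1 of the 21 was called higher and 1 lower, beside 6.09% and 4.74% of all genes, with a median log2 fold change of -0.13. AFP, APOB and TTR were at 0 reads in all 4 of these groups. APOA1 and DAB2 made up 70.4% to 88.5% of the hypoblast sum over the 10 blastocyst and hatched libraries. The rest of that list summed to 436 to 2720 CPM. The part of hypoblast content in the glycoprotein difference was not tested. Epiblast genes, led by POU5F1, summed to 1079 to 1311 CPM in IVF hatched blastocysts, against 560 and 687 CPM in in vivo hatched blastocysts. Of 15 tested, 3 were called higher and 2 lower in IVF embryos, beside 6.96% and 4.88% of all genes. Their median log2 fold change was -1.63, beside 0.04 over all genes, so it went the other way from the sum. POU5F1 and TDGF1 made up 67.6% to 91.7% of the sum over the 10 blastocyst and hatched libraries. The part of epiblast content was likewise not tested. In the same 10 libraries oviduct and uterine epithelium genes summed to 7.15 to 22.3 CPM, blood and immune genes to 5.18 to 17.25 CPM, and stroma and vessel genes to 14.6 to 87.7 CPM. A cumulus and granulosa list summed to 775 to 1875 CPM, of which PTGS2, a prostaglandin synthase gene also on the list of trophoblast products, and EREG, a growth factor gene, made up 97.6% to 99.9%, while FSHR and LHCGR had 0 reads. A sperm list summed to 72.9 to 156 CPM, nearly all from ODF2, which had 72.9 to 156 CPM, while PRM2 and TNP1 had 0 reads.

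Other aspartic proteases of the pepsin family were also measured. CTSD, the lysosomal protease cathepsin D, rose in IVF relative to in vivo blastocysts, with 12300 ± 2760 CPM (SD, n = 3) in IVF and 5320 ± 766 CPM (SD, n = 2) in in vivo blastocysts, a log2 fold change of 1.18 ± 0.32 (adjusted p = 0.0364, edgeR). That call did not hold without in vivo blastocyst library 1 or 2, or without IVF blastocyst library 1 or 2, with log2 fold changes of 0.98 to 1.25 in those 4 fits. BACE2, a membrane-bound aspartic protease, rose by 2.59 ± 0.36 on the log2 scale in IVF relative to in vivo blastocysts (adjusted p = 0.00381, edgeR) and by 1.57 ± 0.35 in IVF relative to in vivo hatched blastocysts (adjusted p = 0.0146, edgeR), and the hatched call did not hold without in vivo hatched library 2 (1.27, adjusted p = 0.147, edgeR). PGA5, the pepsinogen gene beside the cluster, had 0.248 to 1.81 CPM in IVF hatched blastocysts and 0 reads in both in vivo hatched libraries. Of 7 such genes tested, IVF embryos had 2 called higher and 0 lower than in vivo embryos at each of the 2 stages, beside 6.09% of all genes called higher in blastocysts and 6.96% in hatched blastocysts. DESeq2 called 4 of the 7 at each stage, and edgeR with the 4-cell libraries in the fit 0. Over all genes DESeq2 called 18.7% in blastocysts and 19.2% in hatched blastocysts, and edgeR with the 4-cell libraries 0.0378% and 0.497%. In blastocysts the number was 1 when any of 3 libraries was left out, in vivo library 1 and the IVF libraries 1 and 2, and in hatched blastocysts it was 0 without in vivo library 2 and 1 without IVF library 2. On hatching 0 of the 7 were called by edgeR in either origin, with 1 called by DESeq2 in in vivo embryos and 0 in IVF embryos. Over all genes edgeR called 14.3% on hatching in vivo and 0.0451% in IVF embryos, and DESeq2 22.6% and 0.316%.

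Genes outside the family were ranked by the likeness of their profile to that of LOC100737419. Compared were 10584 genes with a mean of at least 5 CPM in a group. Genes known only by a locus number, symbols present more than once and all genes matching the family rule were left out. Over the 13 libraries, those whose log2(CPM + 1) followed that of LOC100737419 most closely were TBC1D16 (Pearson r = 0.987), PLEKHG6 (0.986), GBX1 (0.982), GPR143 (0.979), SLC5A7 (0.977) and AFAP1L1 (0.974). These coefficients are descriptions over libraries that fall into 5 groups, and 3 of the 6 names were among the top 6 with a pseudocount of 0.1 and 3 when the 4-cell libraries were left out. TBC1D16 encodes a regulator of Rab GTPases and averaged 32.6 CPM in IVF hatched and 25.5 CPM in IVF blastocysts, 0.398 CPM in in vivo hatched blastocysts and 10.6 CPM in in vivo blastocysts. GBX1 encodes a homeobox protein and averaged 75.3, 90.5, 0.983 and 30.0 CPM in the same groups. The other family members had r between 0.641, for LOC110259249, and 0.974, for PPAG3, with a median of 0.937. Of the 10584 genes, 5 had an r at or above the highest of these, 28 at or above their median and 1594 at or above the lowest.

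Of 7720 genes that averaged at least 5 CPM in IVF hatched blastocysts, IVF blastocysts and in vivo blastocysts alike, 34 (0.44%) averaged under 1 CPM in in vivo hatched blastocysts. All 6 family members that met the first condition, LOC100737419, LOC100524786, LOC100523945, PPAG3, LOC100524130 and LOC100524479, were among the 34. These conditions restate the pattern already given for the family, and its members are counted in the 7720 and the 34. Their presence there is therefore a description and not a separate result. LOC100524786, LOC100524130, PPAG3 and LOC100524479 met it in in vivo blastocysts only through library 2. In library 1 they had 4.45, 1.905, 1.03 and 0.566 CPM. Of the 34, 19 were also under 1 CPM in 4-cell embryos, the 6 family members included.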

How the data were processed

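Libraries of oligo(dT)-selected RNA were sequenced as paired reads of 150 bases, per the labels' protocols. Tools named in the submitters' processing notes, with no role for each, were RSEM, StringTie 1.3.1, HISAT2, Bowtie2 and fastp 0.18.0, and the build was Sscrofa11.1. The authors deposited raw read counts per gene and FPKM, their length-scaled values. CPM was computed from the counts over each library's total. Of 39 value columns, 15 were not used, among them the FPKM of in vivo hatched blastocysts, whose numbering differs from that of the counts. FPKM served only to compare genes within a library.

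Counts were tested with edgeR 4.0.16 in R 4.3.3 (TMM factors, filterByExpr, quasi-likelihood test, Benjamini-Hochberg adjustment over all genes tested, calls at an adjusted p under 0.05). Both origins' blastocysts and hatched blastocysts, 10 libraries, shared one fit, and the 9 IVF libraries another. Standard errors given with edgeR fold changes were worked back from each fold change and the F value of its test. DESeq2 1.42.0, RLE factors, no filter, all 13 libraries in one fit, a replicate block and leaving out each library were alternatives.

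Named besides the family were the 6 genes most correlated with its most abundant member, neighbouring genes, and from each gene list up to 4 genes with the smallest p and 7 set ones. The members and lists were chosen with earlier results of these data known. Promoter and protein sequences were not used here.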

Additional observations from a re-analysis of the deposited data

Results flagged for a closer look

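The change on hatching differed between IVF and in vivo embryos, in the test of the difference itself, for 7 of the 10 genes. The adjusted p (edgeR) was 0.00763 for LOC100737419, 0.00919 for LOC100524786, 0.00582 for LOC100523945, 0.0274 for PPAG3, 0.0108 for LOC100524130, 0.0328 for LOC100524479 and 0.0196 for PAG6. In each of these 7 genes both in vivo hatched libraries were below both in vivo blastocyst libraries. The test that picked the 7 uses these same values, and ranges apart on hatching in vivo were found for 53.5% of all genes.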

How the results depend on the processing

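With no filter on low counts, 6 genes were called between IVF and in vivo blastocysts and 4 between hatched and unhatched IVF blastocysts, instead of 0 and 0. With the 4-cell libraries added to the fit, the calls were 3 between IVF and in vivo hatched blastocysts, 4 on hatching in vivo and 0 for the difference of the hatching changes, instead of 10, 9 and 7. Leaving out each library gave 0 to 7 calls between IVF and in vivo blastocysts, 4 to 10 between IVF and in vivo hatched blastocysts, 5 to 10 on hatching in vivo, 0 on hatching in IVF embryos and 4 to 8 for the difference. Calls over all genes changed under these settings too, as given above. The cause of these changes was not tested. The 10 calls against 4-cell embryos in each comparison were also made under all alternatives run except DESeq2, which gave 9 in each.

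Some single genes changed direction, in values that had not been called. With each library left out, the log2 fold change of IVF over in vivo blastocysts ran from -2.81 to 2.86 for LOC100524786, from -1.53 to 2.26 for LOC100523945, from -2.56 to 3.0 for LOC100524130, from -1.34 to 4.08 for LOC100524479, from -1.82 to 2.02 for PAG6 and from -4.16 to 0.03 for LOC110259249. The hatching change in IVF embryos ran from -0.03 to 0.60 for LOC100737419, from -0.50 to 0.94 for PAG6 and from -1.03 to 2.58 for LOC110259249, and the difference of the hatching changes from -0.51 to 8.86 for LOC110259250. Of 420 single-gene values with a library left out, 359 had the same direction and side of the threshold as with all libraries, as did 276 of 313 under the other alternatives.

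With the replicate number as a block, the calls were 0 between IVF and in vivo blastocysts, 0 on hatching in IVF embryos and 10 in each comparison with 4-cell embryos, and LOC100524479 changed to 0.51 in the first and LOC110259249 to 0.31 in the second. The deviations of same-numbered libraries from their group means correlated at -0.327 to -0.102 between hatched and unhatched IVF blastocysts, at 0.003 to 0.042 against 4-cell embryos, and at 0.143 and 0.176 for the 2 numbers that IVF and in vivo blastocysts share. The numbers were not taken to pair the libraries, since no comparison had 3 or more pairs all above 0.1 and the labels name no shared source. IVF and in vivo blastocysts share only 2 numbers, so that rule could not be met there and decides nothing for them. No paired analysis was possible because the count column of one in vivo hatched library carries no number, for the comparisons that use in vivo hatched blastocysts. Leaving out libraries for gene lists outside the family was chosen after seeing the data.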
